A study of Mus musculus with 11 samples.

Results

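The lymphoid lineage genes described here are 36 mouse genes that act in the commitment to, or the early function of, B cells, T cells and innate lymphoid cells. Their chromatin accessibility was read in haematopoietic stem cells (HSCs) of old and young mice. A peak was counted for a gene when the authors' deposited tables carried that gene's mouse Entrez identifier beside it, which marks the nearest annotated start site. Each of the 36 genes had at least 1 such peak, and together they held 293 of the 94410 peaks. Of these, 70 were promoter peaks, within 3 kb of a start site, out of 22890 promoter peaks in all. The other 223 lay outside promoters, out of 71520 such peaks, with 137 in introns, 74 between genes, 7 in exons, 4 in 3′ UTRs and 1 in a 5′ UTR. Of these 223 peaks, 188 were within 100 kb of the start site and 35 were farther away, so the assignment of the more distant ones rests on position alone.

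Lymphoid development starts from progenitors that carry the cytokine receptor Flt3, followed by the interleukin-7 receptor. E proteins, Ikaros family factors and Notch signals then direct cells toward the B or T lineage, and the RAG recombinase assembles the antigen receptor genes. Stem cells already hold part of this programme in an accessible state, and the output of HSCs in old mice is known to lean away from lymphoid cells. ATAC-seq, the assay used, tags DNA that a transposase can reach. A peak is therefore a stretch of open chromatin near a gene, and it is no measurement of the gene's transcript.

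All groups were HSCs purified from bone marrow at steady state, and all mice had the genotype Gfplc3/Gfplc3. This genotype adds GFP to LC3, a protein of the autophagosome membrane that is degraded when autophagy runs. Old AThi HSCs were the GFPlo fraction of old mice (3 libraries), labelled as engaging autophagy. Old ATlo HSCs were the GFPhi fraction (3 libraries), labelled as not engaging it. Young HSCs were not fractionated (5 libraries). The old libraries came as AThi and ATlo pairs, and isolation and transposition took 2 days, with the day of each library, the ages in numbers and the sexes not stated. Age and fractionation differ together in each comparison with young HSCs and cannot be told apart there. The labels do not say how many animals gave a library, and the p-values rest on the spread among these libraries alone.

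The files gave no value per library, so the values below are those of groups, and the error of each is the standard error (SE) of its log2 change. The mean normalised count of a peak over the 11 libraries is the authors', and levels of the single groups were computed from it and the 2 log2 changes against young. That computation assumes that the mean runs over all 11 libraries and that group is the only term of the fit. A peak is said to be called, or to have risen or fallen, at an adjusted p under 0.05 in the authors' DESeq2 Wald test. The markers listed for HSCs had promoter peaks high among all promoter peaks. Over the 14 of 15 HSC markers that had a promoter peak, the one with the highest mean count had a median percentile of 82.2 in count per kb. Among markers of mature B cells, Cd79a and Ms4a1, which define them, had no peak. The 3 mature B cell markers with a promoter peak had a median percentile of 15.9, and the 2 T and NK cell markers with one a median percentile of 12.3. Cd3g and Ncr1 had no peak.

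The strongest promoter peak of a gene is the one with the highest mean count, and over the lymphoid genes these peaks covered nearly the whole range of accessibility in these cells, with percentiles per kb of 0.913 to 98.3 among all promoter peaks. Per kb of peak, the mean normalised count in the authors' deposited tables was highest at Id2, with 399, and at Bcl11a, with 343. It was lowest at Pou2af1, with 19.3, and at Il7r, with 21.0. Of the 35 genes with a promoter peak, 14 had their strongest one above the median of all promoter peaks and 14 had it below the 25th percentile. The genes in the upper part included regulators used in several blood lineages, such as Tcf4 with 248, Tcf3 with 228 and Id3 with 218 per kb. Those in the lowest part included the B cell factor Pax5 with 36.1, the inhibitory B cell receptor partner Cd22 with 33.1 and the T cell kinase Zap70 with 30.3 per kb. Lck, the kinase that starts T cell receptor signalling, stood among the high ones with 222 per kb, at a peak -1382 bp from the start. Dntt, which adds bases at antigen receptor joints, had 169 per kb at 1575 bp downstream of its start. Cd3e, a chain of the T cell receptor complex, had no promoter peak and had 2 peaks elsewhere with mean counts of 5.98 and 17.3.

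**Figure D1:**
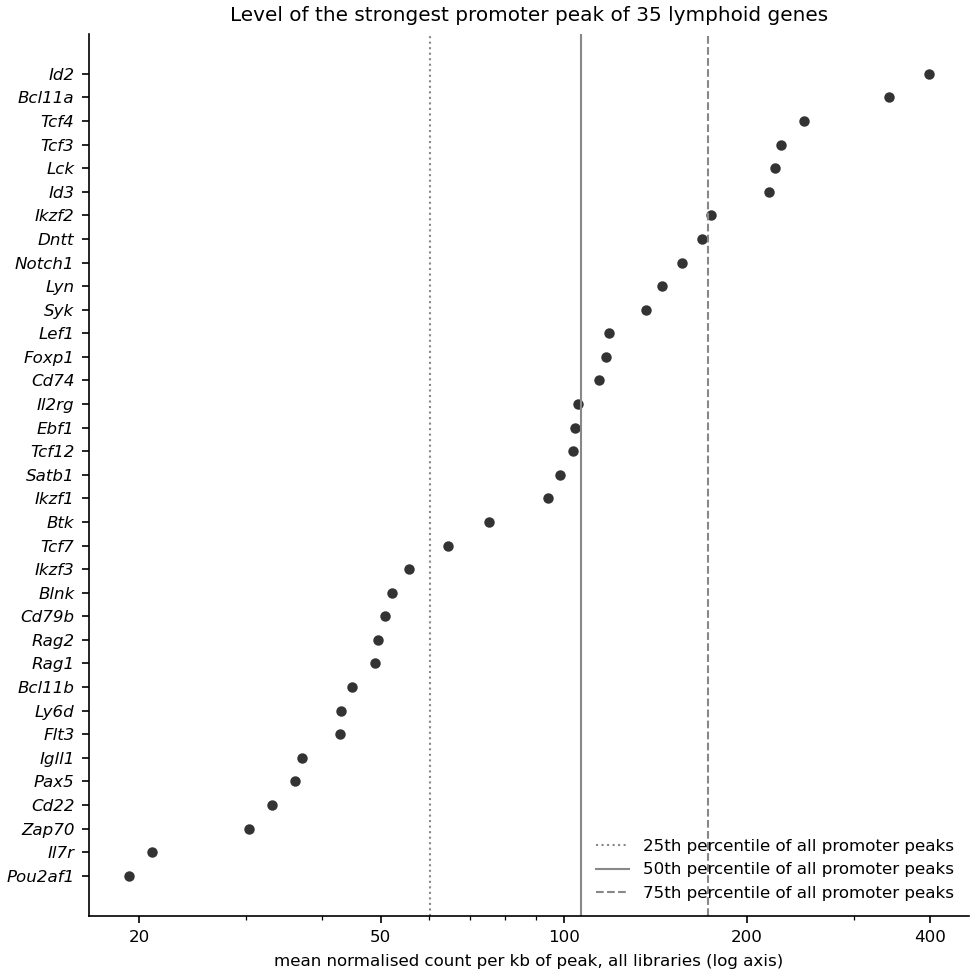
Authors' mean normalised count per kb of peak over all libraries (horizontal log axis) for the strongest promoter peak of each of 35 lymphoid genes (points, 1 gene a row). Vertical lines mark percentiles of all promoter peaks. Id2 at 399 and Bcl11a at 343 stand at the top, and Il7r at 21.0 and Pou2af1 at 19.3 at the bottom.

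RefSeq start site windows of 300 bases (250 before to 50 after the start, build GRCm38.p6) were found for 29 of the 36 genes, 47 windows in all. Shown first are those of Id2 and Il7r, which stand at opposite ends of the accessibility range. Capitals mark letters of the searched motifs CAGCTG and CACCTG (E-boxes of the kind that E proteins bind), TGGGAA (the core read by Ikaros factors and by Rbpj), TGTGGT (Runx), GGAAGT (ETS) and CTTTGA (Tcf7 and Lef1), on either strand.
Id2, chr12:25096043-25096342, minus strand: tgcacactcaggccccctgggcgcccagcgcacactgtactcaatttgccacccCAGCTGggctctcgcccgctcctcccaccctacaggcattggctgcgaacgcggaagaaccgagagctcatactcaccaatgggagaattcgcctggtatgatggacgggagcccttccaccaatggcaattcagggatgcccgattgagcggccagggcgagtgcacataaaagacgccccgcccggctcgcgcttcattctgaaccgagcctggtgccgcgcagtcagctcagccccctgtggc
Il7r, chr15:9529827-9530126, minus strand: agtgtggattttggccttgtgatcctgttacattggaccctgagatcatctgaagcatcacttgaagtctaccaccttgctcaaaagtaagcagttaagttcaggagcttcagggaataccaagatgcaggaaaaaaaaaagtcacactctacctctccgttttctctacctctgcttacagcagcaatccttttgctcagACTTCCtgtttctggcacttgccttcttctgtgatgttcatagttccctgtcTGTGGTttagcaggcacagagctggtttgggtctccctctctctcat
The Id2 window held 21 CpG dinucleotides and the Il7r window 1, against a median of 7 over all 32851 RefSeq windows. The number of CpG dinucleotides was then set beside the count per kb, across the 20 lymphoid genes with a window and a strongest promoter peak within 1 kb of the start. The Spearman correlation was 0.446. For a gene with several windows, the one with most CpG dinucleotides was used, which need not be the window at the peak. The points of this description share the same 11 libraries and the same RefSeq annotation.

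Next are the windows of Tcf7 and Btk, whose strongest promoter peaks lie over a start site and were called in both old fractions in opposite directions. For Tcf7, which has 2 RefSeq starts near each other, both are shown.
Tcf7, chr11:52282546-52282845, minus strand: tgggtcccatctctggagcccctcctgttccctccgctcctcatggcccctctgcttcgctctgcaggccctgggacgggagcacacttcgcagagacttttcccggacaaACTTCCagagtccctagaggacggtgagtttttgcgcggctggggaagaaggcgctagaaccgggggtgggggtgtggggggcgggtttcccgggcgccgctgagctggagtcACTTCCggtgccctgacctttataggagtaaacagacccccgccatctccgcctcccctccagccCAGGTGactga
Tcf7, chr11:52282965-52283264, minus strand: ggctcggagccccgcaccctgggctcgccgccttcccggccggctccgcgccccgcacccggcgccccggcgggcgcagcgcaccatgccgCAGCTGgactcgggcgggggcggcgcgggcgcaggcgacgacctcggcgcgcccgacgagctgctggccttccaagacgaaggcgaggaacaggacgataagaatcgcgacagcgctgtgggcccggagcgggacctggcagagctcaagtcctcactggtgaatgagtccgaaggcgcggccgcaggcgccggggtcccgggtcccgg
Btk, chrX:134583091-134583390, minus strand: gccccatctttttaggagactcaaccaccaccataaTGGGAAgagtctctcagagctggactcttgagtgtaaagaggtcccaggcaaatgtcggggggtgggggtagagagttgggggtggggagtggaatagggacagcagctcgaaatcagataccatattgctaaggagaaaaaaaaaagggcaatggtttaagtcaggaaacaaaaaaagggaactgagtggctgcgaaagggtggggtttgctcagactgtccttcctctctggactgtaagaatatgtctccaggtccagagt
The Tcf7 windows held 17 and 45 CpG dinucleotides and the Btk window 3. Among the 47 windows of the lymphoid genes, 34.0% held CACCTG, against 20.2% of all windows. The ETS motif GGAAGT was in 40.4% of them, against 23.8% of all windows. The E-box CAGCTG was in 8 of the 47, against 16.3% of all windows, and CTTTGA was in 14.9%, against 16.0%. The looser E-box CANNTG, which includes both stricter E-boxes, was in 83.0%, against 72.3% of all windows. TGGGAA was in 31.9%, against 25.6%, and TGTGGT in 14.9%, against 16.8%. These are matches of letters in a window, and nothing was measured of any factor there.

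Most peaks of the lymphoid genes were not called in old HSCs. In old AThi HSCs against young, 4 of the 70 promoter peaks rose, those of Foxp1, Id2, Lef1 and Tcf7. They were 5.71% of the lymphoid promoter peaks, against a background of 7.12% of all promoter peaks tested. Another 3 promoter peaks fell, those of Bcl11a, Btk and Igll1, which is 4.29% against a background of 4.44%. Outside promoters, 216 of the 223 peaks had an adjusted p, and 11 of them rose at 9 genes. They were 5.09% of those tested, against a background of 7.71%. A further 8 fell at 7 genes, which is 3.70% against a background of 2.19%. The shares of promoter peaks were near the background. The share of other peaks that rose was below it and the share that fell was above it, and neither difference was tested. The median log2 change of the lymphoid promoter peaks was -0.12, beside -0.11 over all promoter peaks, and that of the other peaks was -0.09, beside -0.01 over all.

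In old ATlo HSCs against young, 2 promoter peaks rose, those of Foxp1 and Tcf7, and 1 fell, that of Btk. These are 2.86% against a background of 5.69% and 1.43% against a background of 5.98%. Outside promoters, 8 peaks rose at 6 genes, 3.70% against a background of 7.27%, and 4 fell at 3 genes, 1.85% against a background of 1.42%. The median log2 change was -0.10 at the lymphoid promoter peaks, beside -0.14 over all promoter peaks, and -0.03 at the other peaks, beside 0.01 over all. Both comparisons use the same young libraries. Of the 36 genes, 18 had a called peak in AThi HSCs, which is 50% against a background of 31.7% of all genes, and 10 had one in ATlo HSCs, 27.8% against 29.9%. In neither comparison was a peak called for 17 of them, 47.2% against 61.8% of all genes. The lymphoid genes had a mean of 8.14 peaks each and all genes a mean of 4.54, so these shares cannot be set against each other directly. Over promoter and other peaks together, the background was 7.57% higher and 2.74% lower in AThi HSCs and 6.88% higher and 2.54% lower in ATlo HSCs, and the counts by role that follow are read against it. Foxp1 alone held 65 of the 293 peaks. Without it there were 61 promoter peaks and 167 others, some of the others without an adjusted p. In AThi HSCs 3 of the 61 rose and 3 fell (backgrounds 7.12% and 4.44%). Outside promoters, 9 of the 167 were higher and 6 lower (backgrounds 7.71% and 2.19%). Without Foxp1 in ATlo HSCs, 1 of the 61 promoter peaks rose and 1 fell (backgrounds 5.69% and 5.98%). Elsewhere 7 of the 167 were higher and 2 lower (backgrounds 7.27% and 1.42%).

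The split into higher and lower peaks depended on the scaling between libraries. As deposited, 15 lymphoid peaks were higher and 11 lower in AThi HSCs (57.7% higher), and 10 were higher and 5 lower in ATlo HSCs (66.7% higher). Over all peaks 73.4% of the called ones were higher in AThi HSCs and 73.0% in ATlo HSCs. Setting the median of the 2289 strongest promoter peaks to 0 raised every log2 change by 0.22 in AThi and by 0.30 in ATlo HSCs. The lymphoid peaks then split into 23 higher and 8 lower in AThi HSCs (74.2% higher) and 39 higher and 0 lower in ATlo HSCs (100.0% higher), beside 93.8% and 98.1% over all peaks. Under this scaling the medians of the lymphoid peaks changed sign, to 0.10 at promoters and 0.13 elsewhere in AThi HSCs, and to 0.21 and 0.28 in ATlo HSCs.

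**Figure D2:**
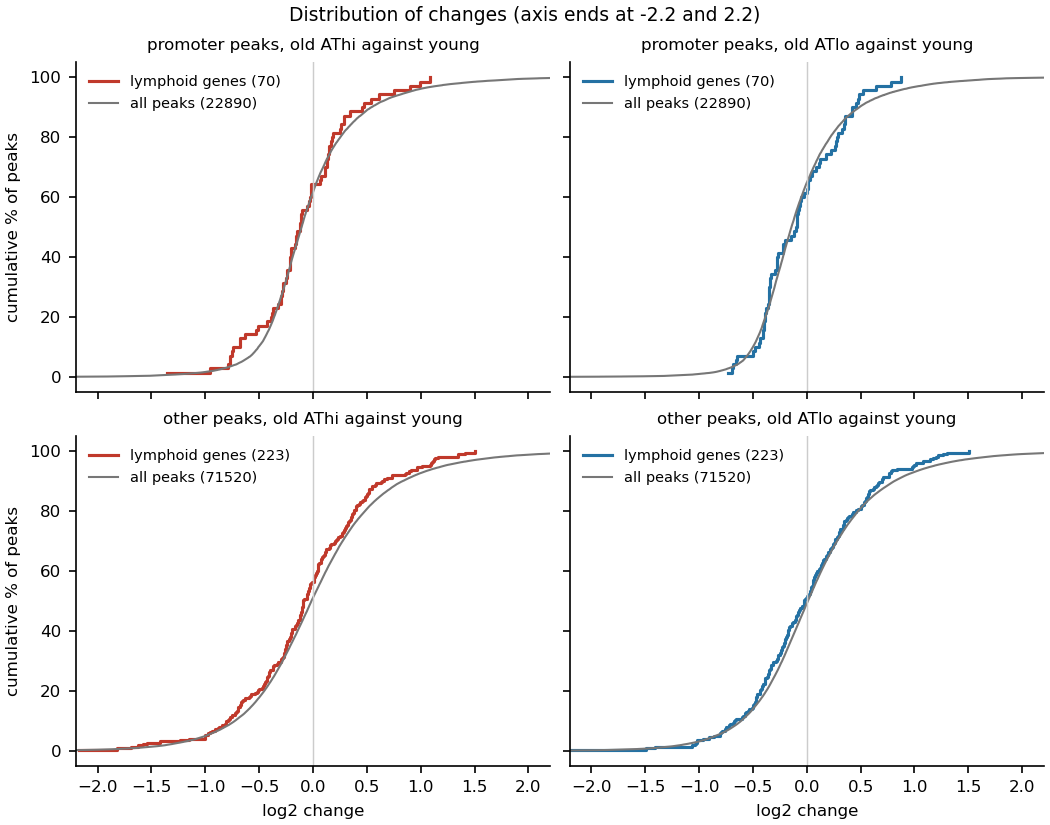
Cumulative percentage of peaks (vertical) against the authors' log2 change versus young (horizontal) for the lymphoid genes (coloured steps) and for all peaks (grey), with promoter peaks in the upper and other peaks in the lower panels. The curves cross 50% near each other, with medians of -0.12 beside -0.11 at promoters and -0.09 beside -0.01 elsewhere in AThi HSCs.

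The 3 cytokine receptor genes had 6 peaks, of which 5 had an adjusted p and 1 was called, higher in AThi HSCs. It is 20% of the 5 tested, against a background of 7.57%. In ATlo HSCs 0 were called. Flt3 marks the multipotent progenitors from which lymphoid cells arise. Its promoter peak had levels of 10.4 in AThi, 14.9 in ATlo and 20.1 in young HSCs. The log2 change in the authors' deposited tables was -0.96 (SE 0.43, adjusted p = 0.153) in AThi and -0.43 (SE 0.38, adjusted p = 0.559) in ATlo HSCs. This peak also lies within 1 kb of the start of Gm26597, so it may belong to either gene. Il7r, the specific chain of the interleukin-7 receptor, had a promoter peak with levels of 9.08 in AThi, 9.61 in ATlo and 15.5 in young HSCs, with adjusted p = 0.375 and 0.421 for the old fractions in the authors' deposited tables. Its called peak was at -66573 bp, in exon 32 of the neighbouring gene Spef2, with levels of 29.4 in AThi, 28.6 in ATlo and 13.6 in young HSCs. Its log2 change in the authors' deposited tables was 1.11 (SE 0.39, adjusted p = 0.0441) in AThi HSCs, where it rose, and 1.08 (SE 0.38, adjusted p = 0.0514) in ATlo HSCs. Il2rg, the chain shared by several interleukin receptors, had a single peak, over its start, with levels of 119 in AThi, 117 in ATlo and 142 in young HSCs and no call.

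None of the 8 peaks at the V(D)J recombination genes was called. The recombinase genes Rag1 and Rag2 lie next to each other on chromosome 2. The Rag2 promoter peak had levels of 25.6 in AThi, 20.0 in ATlo and 16.7 in young HSCs, and its log2 change of 0.62 (SE 0.36, adjusted p = 0.298) in AThi HSCs in the authors' deposited table did not pass. The strongest Rag1 promoter peak had levels of 32.5 in AThi, 42.2 in ATlo and 33.3 in young HSCs. At the Dntt promoter the levels were 139 in AThi, 145 in ATlo and 150 in young HSCs, with a log2 change of -0.11 (SE 0.17) in AThi and -0.05 (SE 0.16) in ATlo HSCs in the authors' deposited tables. The 95% interval of the Dntt change ran from -0.44 to 0.21 in AThi HSCs.

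The B lineage factors had 16 peaks and no call. Ebf1, which specifies the B lineage, held 11 of these peaks. Its promoter had levels of 54.2 in AThi, 68.8 in ATlo and 49.4 in young HSCs, and its log2 change of 0.48 (SE 0.22, adjusted p = 0.172) in ATlo HSCs in the authors' deposited table did not pass. Pax5, which commits cells to that lineage, had 1 peak, at -2163 bp, with levels of 14.9 in AThi, 11.8 in ATlo and 15.2 in young HSCs. Pou2af1, the coactivator of octamer factors in B cells, had a mean count of 8.15 at its promoter peak. Counts this low leave log2 SEs of 0.58 in AThi and 0.56 in ATlo HSCs in the authors' deposited tables, so a 2-fold change could not have been called there.

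The Ikaros family, zinc finger factors that open and close lymphoid genes, had 28 peaks at 3 genes and 1 call. That peak is 3.7% of those tested, against a background of 2.74% lower in AThi HSCs. Ikzf1 (Ikaros) had levels of 31.6 in AThi, 38.2 in ATlo and 48.8 in young HSCs at its strongest promoter peak, and the authors' deposited table gave -0.63 (SE 0.28, adjusted p = 0.153) on the log2 scale for AThi HSCs. Ikzf3 (Aiolos) had a single peak, over its start, at 27.6 in AThi, 29.9 in ATlo and 31.9 in young HSCs. The called peak was at Ikzf2 (Helios), between genes at 171632 bp from its start (chr1:69552160-69553487). Its levels were 55.9 in AThi, 72.7 in ATlo and 103 in young HSCs. In the authors' deposited tables the peak fell by 0.88 on the log2 scale in AThi HSCs (SE 0.23, adjusted p = 0.0023), and had -0.50 (SE 0.21, adjusted p = 0.118) in ATlo HSCs.

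The E proteins and their inhibitors had 54 peaks at 5 genes, of which 4 rose and 0 fell in AThi HSCs and 4 rose and 0 fell in ATlo HSCs. In each, the 4 are 7.69% of the 52 peaks tested, near the background of 7.57% in AThi and 6.88% in ATlo HSCs. E proteins are helix-loop-helix factors that drive B and T cell genes, and Id2 and Id3 pair with them and keep them from DNA. The promoters over the starts of Tcf3 (E2A), Tcf4 (E2-2) and Tcf12 (HEB) were not called. The Tcf3 promoter had levels of 328 in AThi, 295 in ATlo and 388 in young HSCs. At Tcf12 an intron 5 peak at -90628 bp had levels of 42.2 in AThi, 48.2 in ATlo and 19.6 in young HSCs. It rose by 1.11 (SE 0.30, adjusted p = 0.0042) in AThi and by 1.30 (SE 0.29, adjusted p = 0.00024) in ATlo HSCs on the log2 scale of the authors' deposited tables. At Tcf4 an intron 6 peak at 197712 bp had levels of 34.0 in AThi, 36.0 in ATlo and 15.4 in young HSCs, with log2 changes of 1.14 (SE 0.33, adjusted p = 0.0097) and 1.22 (SE 0.32, adjusted p = 0.0034) for AThi and ATlo in the authors' deposited tables. In the authors' deposited table another 2 Tcf4 peaks, at 69234 bp and 217325 bp, rose in ATlo HSCs, by 0.58 (SE 0.20, adjusted p = 0.0475) and 1.50 (SE 0.51, adjusted p = 0.0389). They had levels of 83.4 and 8.15 in AThi, 94.7 and 14.7 in ATlo and 63.5 and 5.17 in young HSCs.

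Id2, which is needed for NK and innate lymphoid cells, had 2 called peaks, both upstream of its start. The peak at -2657 bp had levels of 152 in AThi, 134 in ATlo and 105 in young HSCs, and the one at -14152 bp had 40.0 in AThi, 34.2 in ATlo and 19.8 in young HSCs. In the authors' deposited table for AThi HSCs they rose by 0.53 (SE 0.18, adjusted p = 0.0374) and 1.01 (SE 0.32, adjusted p = 0.0213) on the log2 scale. For ATlo HSCs the authors' deposited table gave 0.35 (SE 0.18, adjusted p = 0.233) and 0.79 (SE 0.32, adjusted p = 0.101). The peak over the Id2 start, the most accessible per kb of the lymphoid genes' strongest promoter peaks, had levels of 336 in AThi, 319 in ATlo and 343 in young HSCs, and was not called. Id3 had levels of 164 in AThi, 160 in ATlo and 147 in young HSCs over its start, also without a call.

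Notch1 and the T lineage factors had 40 peaks, of which 4 rose and 1 fell in AThi HSCs and 2 rose and 0 fell in ATlo HSCs. The risen peaks were 10% in AThi and 5% in ATlo HSCs, against backgrounds of 7.57% and 6.88%. Tcf7 (TCF-1) is the factor that Notch signals induce at the entry into the T lineage. The RefSeq windows printed above for Tcf7 are in another build than its peaks, and which of them a peak covers was not read. The Tcf7 peak over a start (chr11:52173756-52174861) had levels of 97.1 in AThi, 83.7 in ATlo and 48.7 in young HSCs. Both old fractions stood above young HSCs. The log2 change in the authors' deposited tables was 1.00 (SE 0.25, adjusted p = 0.0017) in AThi and 0.78 (SE 0.25, adjusted p = 0.0245) in ATlo HSCs. Lef1, the close relative of Tcf7, had a promoter peak at 932 bp with levels of 109 in AThi, 93.2 in ATlo and 64.8 in young HSCs, and in the authors' deposited table it rose by 0.75 (SE 0.20, adjusted p = 0.0040) in AThi HSCs. In ATlo HSCs the authors' deposited table gave 0.52 (SE 0.20, adjusted p = 0.0767) for the same Lef1 peak. A Lef1 peak in intron 9, at 51588 bp, went the other way, with levels of 73.1 in AThi, 96.7 in ATlo and 137 in young HSCs. Its log2 change in the authors' deposited tables was -0.91 (SE 0.20, adjusted p = 0.00026) in AThi and -0.51 (SE 0.19, adjusted p = 0.0691) in ATlo HSCs.

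Bcl11b, which fixes T cell identity, had 2 called intronic peaks. The one in intron 2, at 22634 bp, had levels of 38.3 in AThi, 26.8 in ATlo and 17.1 in young HSCs, and the one in intron 1, at 4320 bp, had 57.1 in AThi, 49.5 in ATlo and 29.2 in young HSCs. In the authors' deposited table for AThi HSCs they rose by 1.16 (SE 0.32, adjusted p = 0.0049) and 0.97 (SE 0.29, adjusted p = 0.012). In the table for ATlo HSCs the authors' deposited values were 0.64 (SE 0.32, adjusted p = 0.220) and 0.76 (SE 0.29, adjusted p = 0.0704). The Bcl11b promoter peak at -469 bp had 25.1 in AThi, 29.6 in ATlo and 22.2 in young HSCs and was not called. Notch1 itself, the receptor that opens the T cell path, had a peak in intron 2, at 9811 bp, with levels of 225 in AThi, 233 in ATlo and 161 in young HSCs. In the authors' deposited tables it had 0.48 (SE 0.18, adjusted p = 0.0661) in AThi HSCs and rose by 0.53 (SE 0.18, adjusted p = 0.034) in ATlo HSCs. The peak over the Notch1 start, which also lies near the start of Gm35978, had levels of 224 in AThi, 211 in ATlo and 243 in young HSCs and no call.

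**Figure D3:**
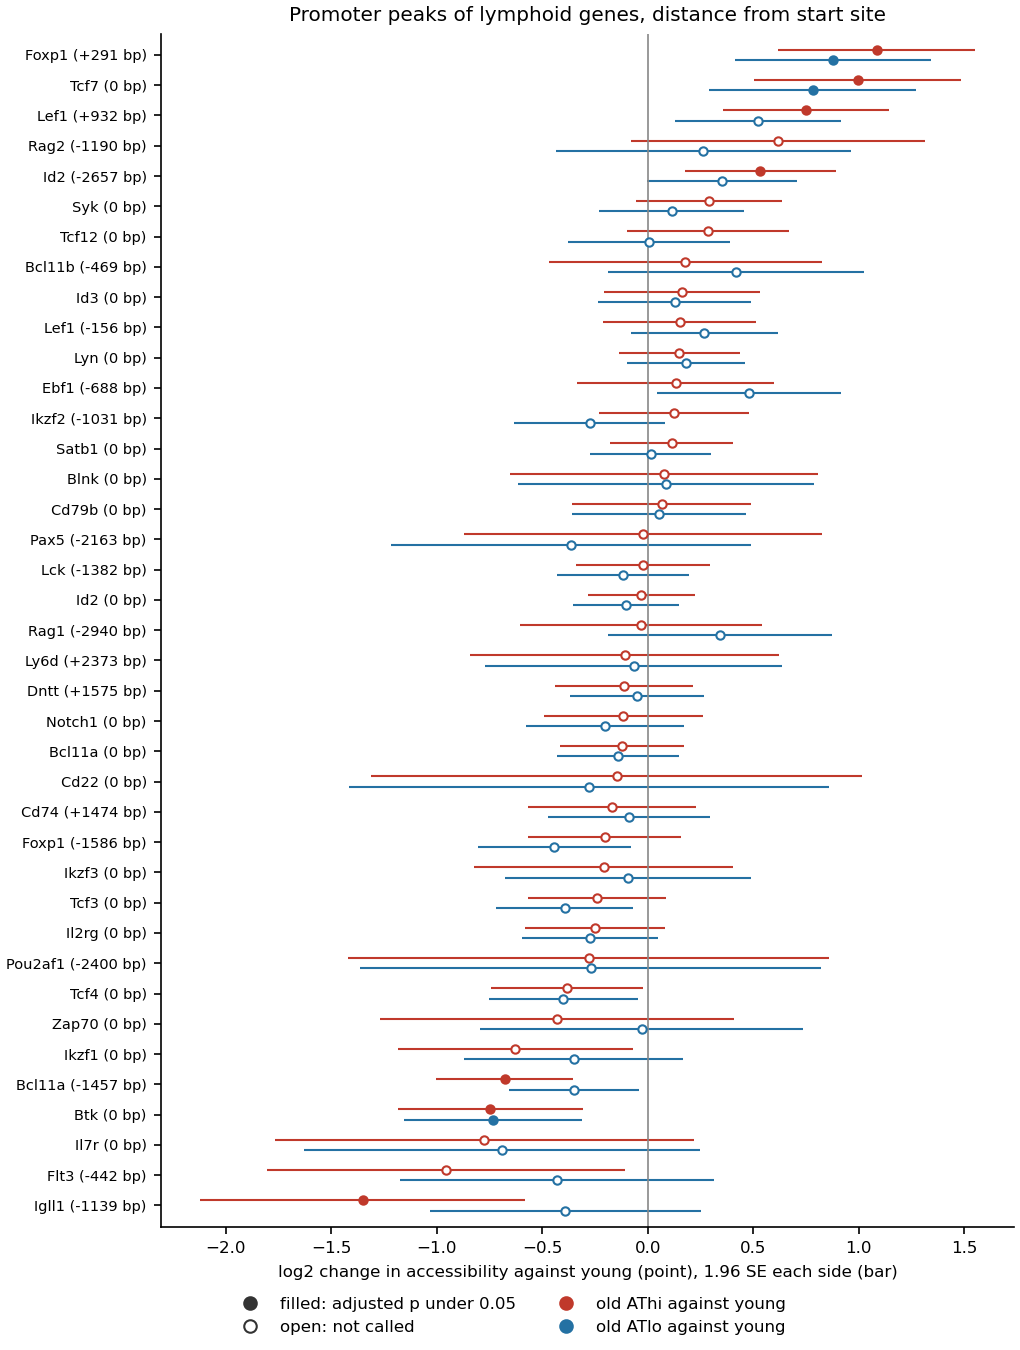
Authors' log2 change against young (horizontal, point, with 1.96 SE on each side as bars) for the strongest promoter peak of each lymphoid gene and for every other called promoter peak, AThi above ATlo in each row. Filled points passed an adjusted p of 0.05. Foxp1, Tcf7 and Lef1 stand highest, and Igll1 with -1.35 in AThi HSCs lowest.

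The other regulators of lymphoid fate, Satb1, Bcl11a and Foxp1, had 93 peaks, of which 3 rose and 3 fell in AThi HSCs and 2 rose and 2 fell in ATlo HSCs. Each way this is 3.3% in AThi and 2.2% in ATlo HSCs of those tested, below the background among higher peaks and near it among lower ones. None of the 12 peaks of Satb1, an organiser of chromatin loops that takes part in the lymphoid priming of stem cells, was called. Bcl11a, which B cell development needs, had a promoter peak at -1457 bp with levels of 123 in AThi, 155 in ATlo and 197 in young HSCs. It fell by 0.68 on the log2 scale in AThi HSCs (SE 0.17, adjusted p = 0.0012) and had -0.35 (SE 0.16, adjusted p = 0.153) in ATlo HSCs in the authors' deposited tables. Over the Bcl11a start the levels were 323 in AThi, 318 in ATlo and 351 in young HSCs, with no call.

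Foxp1, a forkhead factor that B cell development needs and that is used in many other tissues, had peaks called in both directions. A promoter peak at 291 bp from an annotated start (chr6:99497379-99497663) had levels of 74.6 in AThi, 64.7 in ATlo and 35.2 in young HSCs. It rose by 1.08 (SE 0.24, adjusted p = 0.00019) in AThi and by 0.88 (SE 0.24, adjusted p = 0.0049) in ATlo HSCs in the authors' deposited tables. A peak between genes at 149113 bp rose as well, with levels of 105 in AThi, 112 in ATlo and 56.2 in young HSCs and log2 changes of 0.91 (SE 0.21, adjusted p = 0.00059) and 1.00 (SE 0.21, adjusted p = 8.0e-05) for AThi and ATlo in the authors' deposited tables. The peak farthest from the start, at 322442 bp, rose in AThi HSCs, with levels of 43.4 in AThi, 37.9 in ATlo and 23.4 in young HSCs. An intron 2 peak at 24419 bp fell, with levels of 22.1 in AThi, 32.6 in ATlo and 59.3 in young HSCs and log2 changes of -1.42 (SE 0.31, adjusted p = 0.00020) and -0.86 (SE 0.28, adjusted p = 0.027) for AThi and ATlo in the authors' deposited tables. Another intron 2 peak, at -16647 bp, fell in AThi HSCs, with levels of 9.26 in AThi, 16.4 in ATlo and 28.5 in young HSCs. An intron 7 peak at 68233 bp fell in ATlo HSCs, by 1.07 (SE 0.35, adjusted p = 0.0282) on the log2 scale of the authors' deposited table, with levels of 24.4 in AThi, 19.2 in ATlo and 40.3 in young HSCs. With the strongest promoters at 0, the falls at 24419 bp and 68233 bp did not pass in ATlo HSCs.

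**Figure D4:**
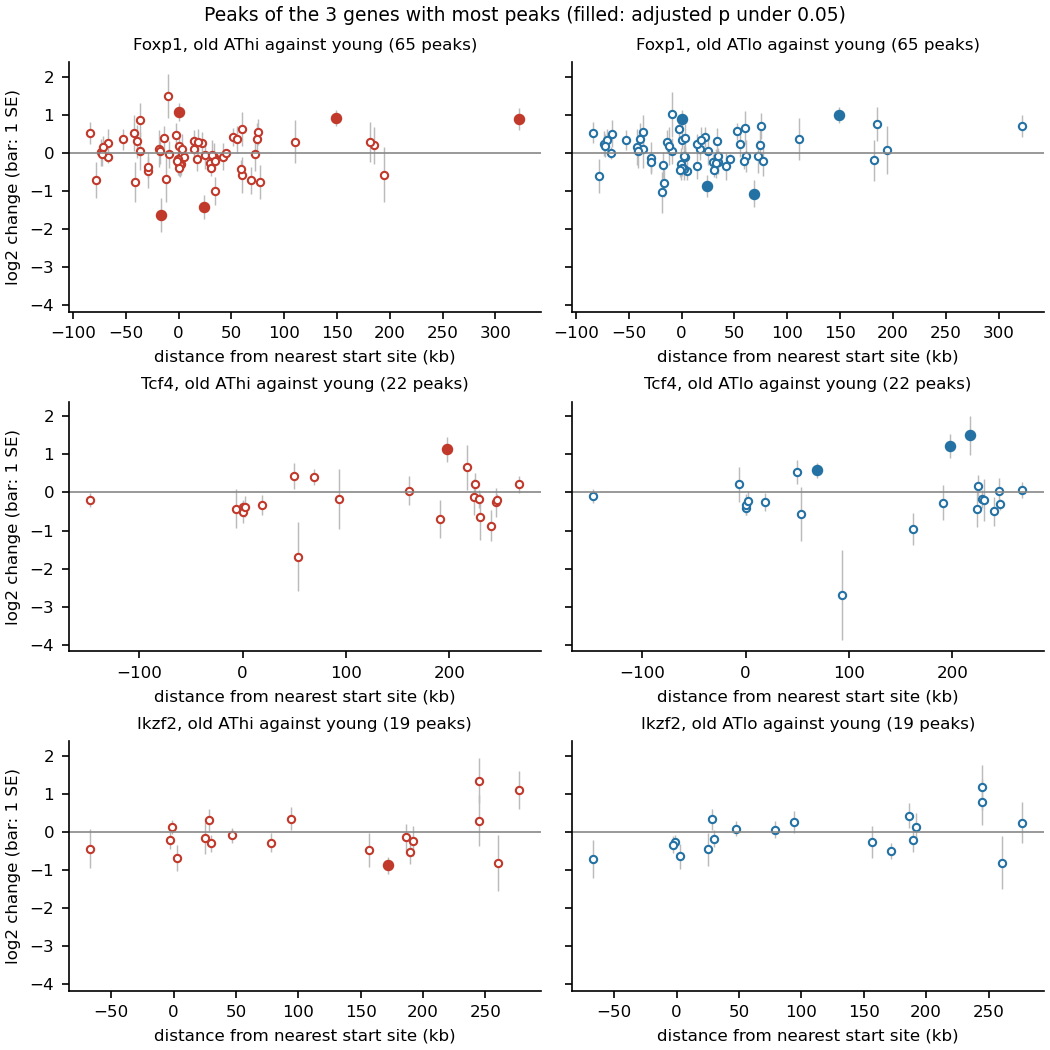
Authors' log2 change against young (vertical, with 1 SE as a bar) by distance from the nearest annotated start (horizontal, kb) for the 3 lymphoid genes with most peaks, AThi on the left and ATlo on the right. Filled points passed an adjusted p of 0.05. Among the 65 Foxp1 peaks the filled ones lie on both sides of 0.

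The genes of the B cell receptor and its signalling had 30 peaks at 7 genes, of which 2 rose and 4 fell in AThi HSCs and 2 rose and 2 fell in ATlo HSCs. Of the 29 tested, 6.9% rose and 13.8% fell in AThi HSCs, against backgrounds of 7.57% and 2.74%, and 6.9% rose and 6.9% fell in ATlo HSCs, against 6.88% and 2.54%. The kinase Btk carries the signal from the receptor into the cell. Its peak over the start (chrX:133483532-133484461), whose RefSeq window is printed above, had levels of 53.4 in AThi, 53.9 in ATlo and 89.6 in young HSCs. The log2 change was -0.75 (SE 0.22, adjusted p = 0.0129) in AThi and -0.73 (SE 0.22, adjusted p = 0.0121) in ATlo HSCs in the authors' deposited tables, and with the strongest promoters at 0 neither passed. Igll1, the λ5 chain of the pre-B cell receptor, had a promoter peak at -1139 bp with levels of 12.8 in AThi, 24.9 in ATlo and 32.6 in young HSCs. It fell in AThi HSCs, with a log2 change in the authors' deposited table of -1.35 (SE 0.39, adjusted p = 0.0098), and had -0.39 (SE 0.33, adjusted p = 0.536) in ATlo HSCs. The kinase Syk had an intron 3 peak, at 17961 bp, with levels of 27.9 in AThi, 38.7 in ATlo and 65.4 in young HSCs, and it fell in AThi HSCs by 1.23 (SE 0.31, adjusted p = 0.0019) on the log2 scale of the authors' deposited table. The kinase Lyn had an intron 1 peak, at 4739 bp, with levels of 34.2 in AThi, 36.6 in ATlo and 61.7 in young HSCs. It fell by 0.85 (SE 0.27, adjusted p = 0.0234) in AThi and by 0.75 (SE 0.26, adjusted p = 0.0425) in ATlo HSCs in the authors' deposited tables, and with the strongest promoters at 0 neither passed.

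The receptor genes that rose did so outside their promoters. Cd22 had a peak in exon 5, at 5217 bp, with levels of 99.7 in AThi, 103 in ATlo and 46.9 in young HSCs, and log2 changes of 1.09 (SE 0.24, adjusted p = 0.00021) and 1.14 (SE 0.24, adjusted p = 7.1e-05) for AThi and ATlo in the authors' deposited tables. Its promoter peak had only 7.72 in AThi, 7.04 in ATlo and 8.54 in young HSCs. Cd79b, a signalling chain of the receptor, had a called peak at -4300 bp, in a 3′ UTR whose gene the tables do not name. The other Cd79b peaks outside its promoter lay in exons and introns of the neighbouring gene Scn4a, the nearest in exon 24. The called peak lies beside that exon, so giving it to Cd79b rests on position alone. The called peak had levels of 69.9 in AThi, 68.1 in ATlo and 32.2 in young HSCs. Its log2 changes were 1.12 (SE 0.29, adjusted p = 0.0024) and 1.08 (SE 0.28, adjusted p = 0.0037) for AThi and ATlo in the authors' deposited tables. Over the Cd79b start the levels were 69.1 in AThi, 68.5 in ATlo and 66.0 in young HSCs. Blnk, the adaptor that links Syk to Btk, had 19.3 in AThi, 19.4 in ATlo and 18.3 in young HSCs over its start and no called peak.

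The T cell receptor genes Cd3e, Lck and Zap70 had 11 peaks, of which 1 rose and 1 fell in AThi HSCs (9.09% each way, on 11 peaks) and none was called in ATlo HSCs. Both called peaks were assigned to Zap70, the kinase that binds the activated receptor, and both lay inside neighbouring genes. The peak at 45285 bp, in intron 18 of Tmem131, had levels of 20.9 in AThi, 15.4 in ATlo and 7.84 in young HSCs. The peak at -7075 bp, in intron 8 of 4933424G06Rik, had levels of 24.0 in AThi, 33.2 in ATlo and 53.4 in young HSCs. In the authors' deposited table for AThi HSCs their log2 changes were 1.41 (SE 0.43, adjusted p = 0.0164) and -1.15 (SE 0.30, adjusted p = 0.0024). The strongest Lck promoter peak had levels of 166 in AThi, 155 in ATlo and 168 in young HSCs and was not called.

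The surface protein Ly6d, which marks lymphoid progenitors bound for the B lineage, had a single peak, with levels of 19.5 in AThi, 20.1 in ATlo and 21.1 in young HSCs. Cd74, the invariant chain that escorts MHC class II molecules, had an intron 1 peak at 3096 bp with levels of 77.3 in AThi, 73.1 in ATlo and 117 in young HSCs. It fell by 0.60 (SE 0.21, adjusted p = 0.0407) in AThi and by 0.68 (SE 0.20, adjusted p = 0.0138) in ATlo HSCs in the authors' deposited tables, and with the strongest promoters at 0 neither passed. Cells of mixed kinds in a bulk library give 1 summed signal, so fewer cells with an open site and less openness per cell cannot be told apart for any of these peaks.

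**Figure D5:**
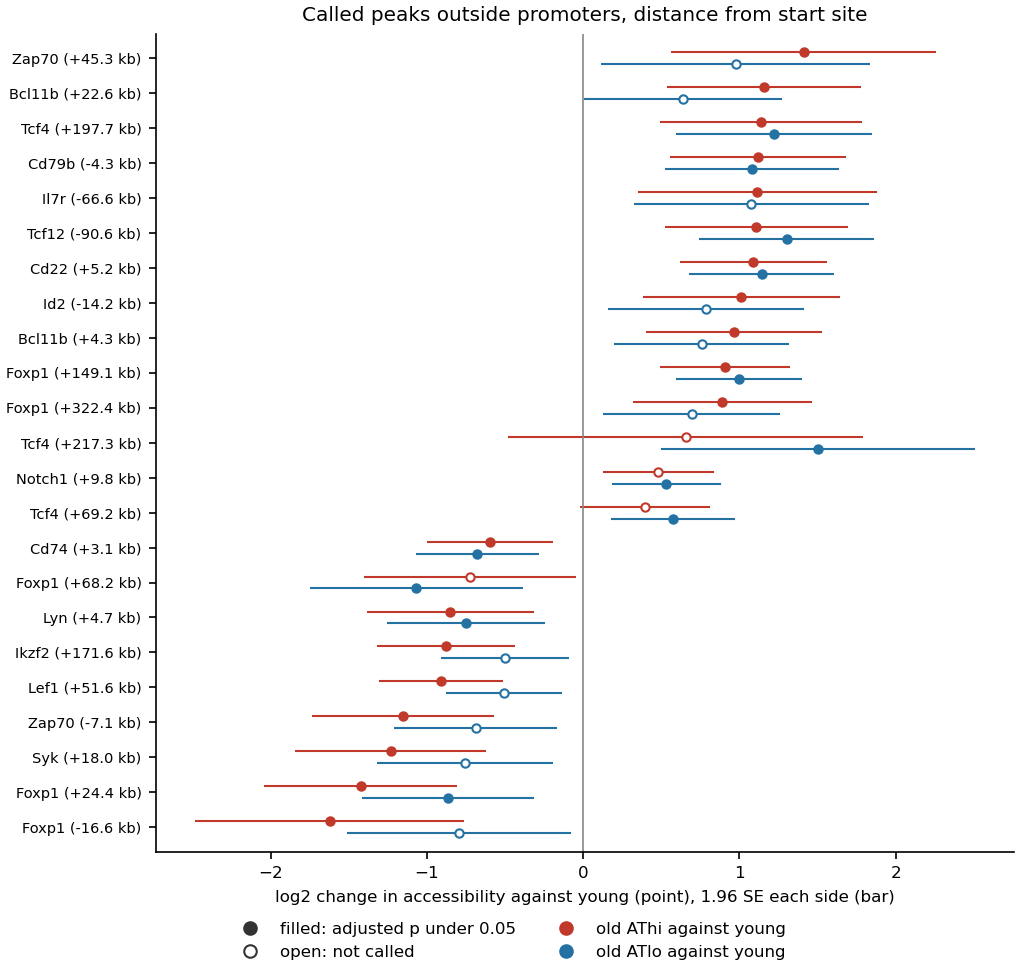
Authors' log2 change against young (horizontal, point, with 1.96 SE on each side as bars) for the lymphoid peaks outside promoters that were called in at least 1 comparison with young, AThi above ATlo in each row. Filled points passed an adjusted p of 0.05. Zap70 at 45285 bp has 1.41 in AThi HSCs and Foxp1 at -16647 bp has -1.62.

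Between old AThi and old ATlo HSCs no lymphoid peak was called. This comparison is the test of whether the fractions differ from each other, and over all 94410 peaks 0 passed an adjusted p of 0.05 in the authors' DESeq2 test, a background of 0%. At an unadjusted p under 0.05 the lymphoid genes had 5 of 293 peaks (1.71%), against a background of 1.78% of all peaks. Both shares lie below what well-calibrated p-values would give with no difference at any peak. The test was thus conservative here, and its 0 calls do not show that the fractions are alike. Why it was conservative was not tested. The median log2 difference was 0.01 at the lymphoid promoter peaks, beside 0.05 over all promoter peaks, and -0.09 at the other peaks, beside -0.02 over all. Of the 5 peaks, the Igll1 promoter peak was lower in AThi HSCs, where the authors' deposited table had a log2 difference of -0.96 (SE 0.43, unadjusted p = 0.0269, adjusted p = 1.0). The Ikzf2 promoter peak at -1031 bp had levels of 205 in AThi, 156 in ATlo and 188 in young HSCs, and the authors' deposited table had a log2 difference of 0.40 (SE 0.20, unadjusted p = 0.0469, adjusted p = 1.0). The remaining 3 had a higher level in AThi HSCs. They were a Tcf12 peak at -57931 bp and Tcf4 peaks at 161481 bp and 93257 bp, with log2 differences of 0.82, 1.00 and 2.53 and unadjusted p of 0.0223, 0.0334 and 0.0454 in the authors' deposited table. The Tcf4 peak with the difference of 2.53 rests on a mean normalised count of 3.97 and an SE of 1.26. For the Tcf7 promoter the difference was 0.21 (SE 0.27), for Btk -0.01 (SE 0.26) and for the Foxp1 promoter peak at 291 bp 0.21 (SE 0.26) in the authors' deposited table. A peak called in AThi HSCs and not in ATlo HSCs, such as the Id2, Lef1, Bcl11a and Igll1 promoters, was thus not shown to differ between them.

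Other B cell genes were read from a list of 15, of which 12 had a peak. Of 19 promoter peaks, 2 rose (10.5%, background 7.12%) and 1 fell (5.26%, background 4.44%) in AThi HSCs. In ATlo HSCs 2 rose (10.5%, background 5.69%) and 0 fell (background 5.98%). Of 78 other peaks tested, 5 rose (6.41%, background 7.71%) and 1 fell (1.28%, background 2.19%) in AThi HSCs. In ATlo HSCs 4 rose (5.13%, background 7.27%) and 1 fell (1.28%, background 1.42%). Pou2f2 (Oct-2), the octamer factor that works with Pou2af1, had levels of 108 in AThi, 98.9 in ATlo and 46.2 in young HSCs over its start. Its log2 change in the authors' deposited tables was 1.22 (SE 0.24, adjusted p = 1.2e-05) in AThi and 1.10 (SE 0.23, adjusted p = 0.00013) in ATlo HSCs. Cr2, a complement receptor of mature B cells, had levels of 239 in AThi, 207 in ATlo and 152 in young HSCs over its start and was called in both. Spib, an ETS factor of B cells, had a promoter peak at -2119 bp with levels of 10.7 in AThi, 12.0 in ATlo and 25.6 in young HSCs, which fell in AThi HSCs. A peak between genes at 46817 bp from Rhoh, a GTPase of lymphocytes, rose in both, with levels of 65.1 in AThi, 49.1 in ATlo and 16.9 in young HSCs. Bach2, a repressor in B and T cells, had a peak at -200428 bp that rose in both, with levels of 33.5 in AThi, 32.4 in ATlo and 6.84 in young HSCs, and a peak at -58331 bp that fell in AThi HSCs, with levels of 11.5 in AThi, 21.4 in ATlo and 34.9 in young HSCs. An Irf4 peak at 36650 bp fell in ATlo HSCs, with levels of 132 in AThi, 107 in ATlo and 153 in young HSCs.

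Other T cell genes were read from a list of 19, of which 17 had a peak. Of 23 promoter peaks, 0 rose (background 7.12%) and 1 fell (4.35%, background 4.44%) in AThi HSCs, and none was called in ATlo HSCs. Of 108 other peaks tested, 7 rose (6.48%, background 7.71%) and 2 fell (1.85%, background 2.19%) in AThi HSCs. In ATlo HSCs 5 rose (4.63%, background 7.27%) and 1 fell (0.926%, background 1.42%). The shares were thus near or below the background, and the peaks named next are single peaks. The peak that fell at a promoter was that of Cd5, a surface receptor that dampens T cell signals, with levels of 10.5 in AThi, 15.8 in ATlo and 27.3 in young HSCs. Dtx1, a target and modulator of Notch signals, had an exon peak at 16572 bp with levels of 133 in AThi, 87.7 in ATlo and 27.8 in young HSCs. It had log2 changes of 2.25 (SE 0.26) and 1.66 (SE 0.26) for AThi and ATlo in the authors' deposited tables, and was called in both. Runx3, a factor of cytotoxic T cells, had a peak in a 3′ UTR at 22885 bp that rose in both, with levels of 130 in AThi, 91.2 in ATlo and 33.1 in young HSCs. Other Runx3 peaks, at 26473 bp and 40101 bp, fell in AThi HSCs. Their levels were 10.6 and 10.7 in AThi, 23.0 and 12.3 in ATlo and 27.7 and 39.1 in young HSCs. Cd247, the zeta chain of the T cell receptor complex, had an intron peak at 55663 bp that fell in ATlo HSCs, where the authors' deposited table had -0.44 (SE 0.14, adjusted p = 0.023) on the log2 scale.

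Promoter and other peaks of marker genes of mature blood, stromal and endothelial cells were set beside these values. The summed levels over the 3 mature B cell marker promoters were 266 in AThi, 226 in ATlo and 177 in young HSCs. Cr2 alone gave 239 in AThi, 207 in ATlo and 152 in young HSCs. With no peak at Cd79a or Ms4a1, the sum follows Cr2. For the 2 T and NK cell marker promoters the sums were 28.3 in AThi, 27.7 in ATlo and 31.5 in young HSCs. For the 7 myeloid ones they were 664 in AThi, 607 in ATlo and 639 in young HSCs, and for the 4 erythroid ones 590 in AThi, 605 in ATlo and 573 in young HSCs. For the 8 stromal and endothelial ones they were 819 in AThi, 779 in ATlo and 691 in young HSCs. Of their 12 promoter peaks 1 was called, that of Cxcl12, which rose in both old fractions (8.33%, backgrounds 7.12% in AThi and 5.69% in ATlo HSCs). Cxcl12 alone gave 190 in AThi, 155 in ATlo and 79.1 in young HSCs. Outside promoters, 8 of the 45 stromal and endothelial marker peaks rose in AThi HSCs and 8 in ATlo HSCs, which is 17.8% in each, against backgrounds of 7.71% and 7.27%. Another 2 fell in each (4.44%, against 2.19% and 1.42%). The strongest of these peaks at each gene summed to 584 in AThi, 572 in ATlo and 473 in young HSCs. The same sums were 538 in AThi, 484 in ATlo and 651 in young HSCs for T and NK cell markers, where 2 of 12 peaks outside promoters fell and 1 rose in AThi HSCs and 4 fell in ATlo HSCs, all of them assigned to Klrb1c. The fallen peaks are 16.7% and 33.3% of the 12, against backgrounds of 2.19% in AThi and 1.42% in ATlo HSCs. For myeloid markers they were 352 in AThi, 331 in ATlo and 489 in young HSCs, with 3 of 22 such peaks lower in AThi (13.6%, background 2.19%) and 2 lower in ATlo HSCs (9.09%, background 1.42%) and median log2 changes of -0.70 and -0.51. For erythroid markers they were 130 in AThi, 173 in ATlo and 179 in young HSCs, with no call. The 1 mature B cell marker with peaks there had 92.3 in AThi, 92.5 in ATlo and 102 in young HSCs. The part of such cells in the changes of the lymphoid peaks was not tested.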

How the data were processed

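ATAC-seq libraries of 3 old AThi, 3 old ATlo and 5 young HSC samples stood behind 3 tables, each a comparison made by the authors over 94410 peaks. DESeq2, featureCounts, MACS2, ChIPseeker, BWA, cutadapt and Trim Galore are named in the submitters' processing notes, with no version or setting. How reads were shifted for the transposase, deduplicated and merged into peaks is not stated there, and these steps set which peaks exist and where they end. The mean normalised count per peak is the authors' and was used as a signal value. The authors' deposited log2 changes, with SEs on the same log2 scale, were used as they stand. The Wald score, change over SE, and the p-values with Benjamini-Hochberg adjusted p-values are the authors' too. In both comparisons with young, 1831 peaks had no adjusted p and were not called.

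The design had allowed for counts per library. With 0 columns of values for single samples in the tables, no fit was run, library depth could not be checked, and the authors' calls were used. The tables come from 1 fit, since the AThi and ATlo changes against young differ by the AThi against ATlo change to within 1.02e-14. Whether that fit had a term for pair or day is not stated. Group levels were solved from the authors' mean and log2 changes. Intervals of 95% are 1.96 SE on each side. The code was tested on simulated data.

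Names came from the RefSeq GRCm38.p6 table, which matched 20791 of 20810 gene identifiers. The notes name GRCm38 and mm39. Peak coordinates are 1-based and were taken as mm39, because only 470 of 26454 transcripts in the tables share an end with their GRCm38.p6 gene. RefSeq windows are in GRCm38.p6, and no coordinate was converted. The members, lists, roles, motifs and the rule for named peaks were chosen with earlier results of these data known. The rule took each gene's promoter peak with the highest mean count, every called peak up to 20 a direction, the 5 smallest p between AThi and ATlo, and up to 2 peaks a direction from each further list. CpG counts were added after the values were seen. Python 3.11.15, pandas 2.3.3, numpy 2.4.6, scipy 1.17.1 and matplotlib 3.10.9 were used. Items that the rule also selected are not reported here.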

Additional observations from a re-analysis of the deposited data

How the results depend on the processing

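No paired analysis was possible because the tables hold no value per library. For the same reason leaving out each library, edgeR's TMM and other size factors were not run. Each share given here is of the lymphoid peaks of that kind, against the share of all peaks of that kind at the same setting. In AThi HSCs against young, the 4 and 3 promoter peaks called higher and lower became 1 and 1 when 2-fold was also asked. These were 1.43% against 3.46% and 1.43% against 0.725%. With promoters limited to 1 kb, 1 was lower (2.38% against 4.6%). The 11 other peaks called higher became 6 at an adjusted p under 0.01 (2.69% against 4.96%). They became 5 with peaks limited to promoters or the gene itself (3.65% against 7.55%). With the strongest promoters at 0 they became 17 (7.62% against 13.2%). The 8 called lower became 4 at 2-fold (1.79% against 1.2%). In ATlo HSCs, an adjusted p under 0.01 left 1 higher (1.43% against 4.04%) and 0 lower (against 1.46%) promoter peaks. It left 5 higher (2.24% against 4.43%) and 0 lower (against 0.457%) other peaks. At 2-fold there were 0 and 0 promoter peaks (against 2.77% and 0.367%). Of other peaks there were then 5 and 1 (2.24% against 4.92%, and 0.448% against 0.624%). The strongest promoters at 0 gave 10 and 0 promoter peaks (14.3% against 14.5%, and 0% against 0.24%), with a median log2 change of 0.21. Of other peaks there were then 29 and 0 (13.0% against 17.1%, and 0% against 0.352%). Within 100 kb, 5 other peaks were higher (2.66% against 6.44%). Why the counts move with the scaling was not tested. The 30 lymphoid peaks called in AThi or ATlo HSCs against young, with 26 and 15 calls, were also followed singly. Peaks called only under another setting are not among them, so gains elsewhere are not counted below. Adjusting over every peak changed no call of these 30. A mean count of at least 10 added 1, and the median of all peaks at 0 added 2 and removed 2. The strongest promoters at 0 added 10 and removed 8, an adjusted p under 0.01 removed 18 and 2-fold removed 21. Precision was limited at weak peaks, where the SE of the lymphoid peaks outside promoters reached 1.06 in AThi and 1.18 in ATlo HSCs.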

Other observations

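Genes of NK and innate lymphoid cells, read from a list of 12 of which 11 had a peak, included promoter peaks that rose. Of 19 promoter peaks, 3 rose (15.8%, background 7.12%) and 0 fell (background 4.44%) in AThi HSCs. In ATlo HSCs 4 rose (21.1%, background 5.69%) and 0 fell (background 5.98%). Of 79 other peaks tested, 10 rose (12.7%, background 7.71%) and 2 fell (2.53%, background 2.19%) in AThi HSCs. In ATlo HSCs 3 rose (3.8%, background 7.27%) and 5 fell (6.33%, background 1.42%). Zbtb16 (PLZF), a factor of innate-like lymphocytes, had a promoter peak at 522 bp with levels of 98.3 in AThi, 82.9 in ATlo and 35.5 in young HSCs, called in both. A Zbtb16 intron peak at 18196 bp rose in both, with levels of 84.1 in AThi, 86.7 in ATlo and 50.4 in young HSCs. Prf1 (perforin) had a peak at 14985 bp that rose in both, with levels of 26.5 in AThi, 23.8 in ATlo and 9.64 in young HSCs. Near Klrb1c, the NK1.1 gene, the peaks at 24035 bp and 27452 bp fell in both, with levels of 253 and 143 in AThi, 241 and 136 in ATlo and 358 and 198 in young HSCs.

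Genes linked to lymphoid priming, a list of 15 that all had a peak, had peaks called each way. Of 33 promoter peaks, 1 rose (3.03%, background 7.12%) and 3 fell (9.09%, background 4.44%) in AThi HSCs. In ATlo HSCs 1 rose (3.03%, background 5.69%) and 4 fell (12.1%, background 5.98%). Of 133 other peaks tested, 7 rose (5.26%, background 7.71%) and 2 fell (1.5%, background 2.19%) in AThi HSCs. In ATlo HSCs 7 rose (5.26%, background 7.27%) and 3 fell (2.26%, background 1.42%). The promoter that rose was that of Tcf15, a factor tied to quiescent HSCs, with levels of 338 in AThi, 282 in ATlo and 184 in young HSCs. Mef2c, which favours lymphoid over myeloid fate, had a promoter peak at -812 bp that fell in both, with levels of 327 in AThi, 331 in ATlo and 455 in young HSCs, and an intergenic peak at -18924 bp with levels of 42.7 in AThi, 51.6 in ATlo and 15.9 in young HSCs, called higher in both. Spi1 (PU.1) had a promoter peak at 432 bp that fell in ATlo HSCs, by 0.63 (SE 0.17, adjusted p = 0.0036) on the log2 scale of the authors' deposited table, with levels of 172 in AThi, 142 in ATlo and 219 in young HSCs. A peak at 26731 bp from Ccr7, the chemokine receptor for lymph node entry, rose in both, with levels of 66.2 in AThi, 63.4 in ATlo and 23.2 in young HSCs.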
